A study of Mus musculus with 10 samples.

Results

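The genes described here are the cyclins, the cyclin-dependent kinases and the Cdc25 phosphatases, a set of 37 genes taken by name from a list. That list was chosen with earlier results of these data known. Of the 37 genes, 34 were measured by a probe set that carries their symbol alone, and each by 1 probe set. In all, 22180 genes were measured. Ccnb1, Ccne2 and Ccnf are not analysed here: no probe set used carries the symbol Ccnb1, and the probe sets of Ccne2 and Ccnf are shared with Ints8 and Mir5134. The study compared 5 samples of Zbtb4 knock-out mouse embryonic fibroblasts with 5 samples of wild-type fibroblasts on one-colour Affymetrix expression arrays. The product of Zbtb4 is a zinc-finger repressor of transcription with affinity for methylated DNA. Both genotypes were prepared alike, from trypsin-digested dorsal skin of embryos at embryonic day 13.5, no treatment is named in the labels, and total RNA was labelled with biotin. The knock-out allele, the strain and the passage of the cells are not given in the sources used here, nor is it said that each array held cells of a different embryo, so the p-values below measure the spread between these samples.

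Cyclins are the regulatory subunits of cyclin-dependent kinases, and many of them are made and destroyed once in each cell cycle. D-type cyclins with Cdk4 and Cdk6, and E-type cyclins with Cdk2, drive cells from G1 into S phase, while A-type and B-type cyclins with Cdk2 and Cdk1 act in S phase and mitosis. Cdc25 phosphatases remove the inhibitory phosphates that Wee1 and Pkmyt1 place on these kinases. A further branch of the family, among them Cdk8, Cdk9, Cdk12 and Cdk13, acts mainly on RNA polymerase II and its cofactors, and Cdk7 acts both there and as the activating kinase of the cell cycle kinases. The level of the mitotic genes in a culture rises and falls with the share of its cells in G2 and mitosis. In bulk RNA, fewer cells that express a gene and less RNA per cell cannot be told apart.

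Over all probe sets, the 10 arrays had median log2 values between 3.891 and 3.926. Over the 22180 genes, they correlated with one another at r between 0.989 and 0.994. Where a gene is set against the median of an array below, that median is the one over the 22180 genes. The depth of an array has no counterpart of read number, so the number of arrays limits the precision. Zbtb4 averaged 5.45 ± 0.27 on knock-out arrays and 6.07 ± 0.11 on wild-type arrays (SD, n = 5 each), a log2 difference of -0.62 whose groups did not overlap (exact two-sided permutation p = 0.00794, the smallest the design allows; limma adjusted p = 0.628). The deleted part of the gene is not given, so the probe set may or may not lie in it. All 14 fibroblast markers lay above the array medians, with a mean level of 9.418 to 9.636 on knock-out arrays and 9.399 to 9.73 on wild-type arrays. Macrophage markers had a mean level of 4.075 to 5.401 on knock-out arrays and 4.345 to 4.644 on wild-type arrays, with 7 of 8 higher in the knock-out mean and 3 of 8 below the median of every array. Their mean deviation from the gene means was 0.19, -0.13, 0.81, 0.11 and -0.51 on knock-out arrays 1 to 5, so array 3 was far above the others. On wild-type arrays it lay between -0.24 and 0.06. Endothelial markers spanned 3.601 to 3.848 on knock-out arrays and 3.44 to 3.804 on wild-type arrays, with 7 of 8 higher in the knock-out mean and 6 of 8 below the median of every array. Of these 8, 2 were higher at an unadjusted limma p under 0.05, against 3.25% of all genes. The groups did not overlap for 2 of the 8, against 0.987% of all genes. The largest difference was 0.61 on the log2 scale, more than that of any gene of the set. All 4 erythroid markers measured had higher knock-out means, by at most 0.22, and 3 of them lay below the median of every array. At an unadjusted limma p under 0.05, 1 of the 4 was higher, against 3.25% of all genes. Of 5 keratinocyte markers measured, 3 had a lower knock-out mean and 2 a higher one. Of 6 muscle markers, 3 had a lower knock-out mean and 3 a higher one, by at most 0.449. Over all genes, 49.3% had a lower knock-out mean. The part of these cell types in the results below was not tested. Y-linked genes were high on arrays 1 and 3 of each genotype and low on the other arrays, 2 of 5 arrays in each genotype being high.

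No cyclin, kinase or phosphatase of the set passed an adjusted p of 0.05 in limma, and neither did any of the 22180 genes (0%). The largest differences lay in the S phase, mitotic and Cdc25 genes, all 7 of which had a lower mean in knock-out cells, with log2 differences between -0.41 and -0.07. Over the whole set, 26 of 34 genes had a lower knock-out mean, against 49.3% of all genes, and the median log2 difference was -0.047, against 0.00197 over all genes. At an unadjusted limma p under 0.05, 3 genes were lower in knock-out cells (Cdc25c, Cdc25b and Ccnb2), against 2.73% of all genes, and 0 were higher, against 3.25% of all genes. The arrays of the genotypes did not overlap for 1 gene of the set, Cdc25c, against 0.987% of all genes. The adjusted p-values of the 34 genes ran between 0.804 and 0.998. The count of lower means depended on scaling: after quantile normalization of the arrays it was 19 of 34, against 50.1% of all genes, and after centring each array on its median it was 27 of 34, against 55.4% of all genes. Without the dimmest 40% of genes, a filter that removes Ccna1 from the set, the count was 25, against 54.5% of the genes kept. Of the 34 differences, 20 were smaller than 0.1 and 4 reached 0.2 on the log2 scale, with a median standard error of 0.0901.

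**Figure D1:**
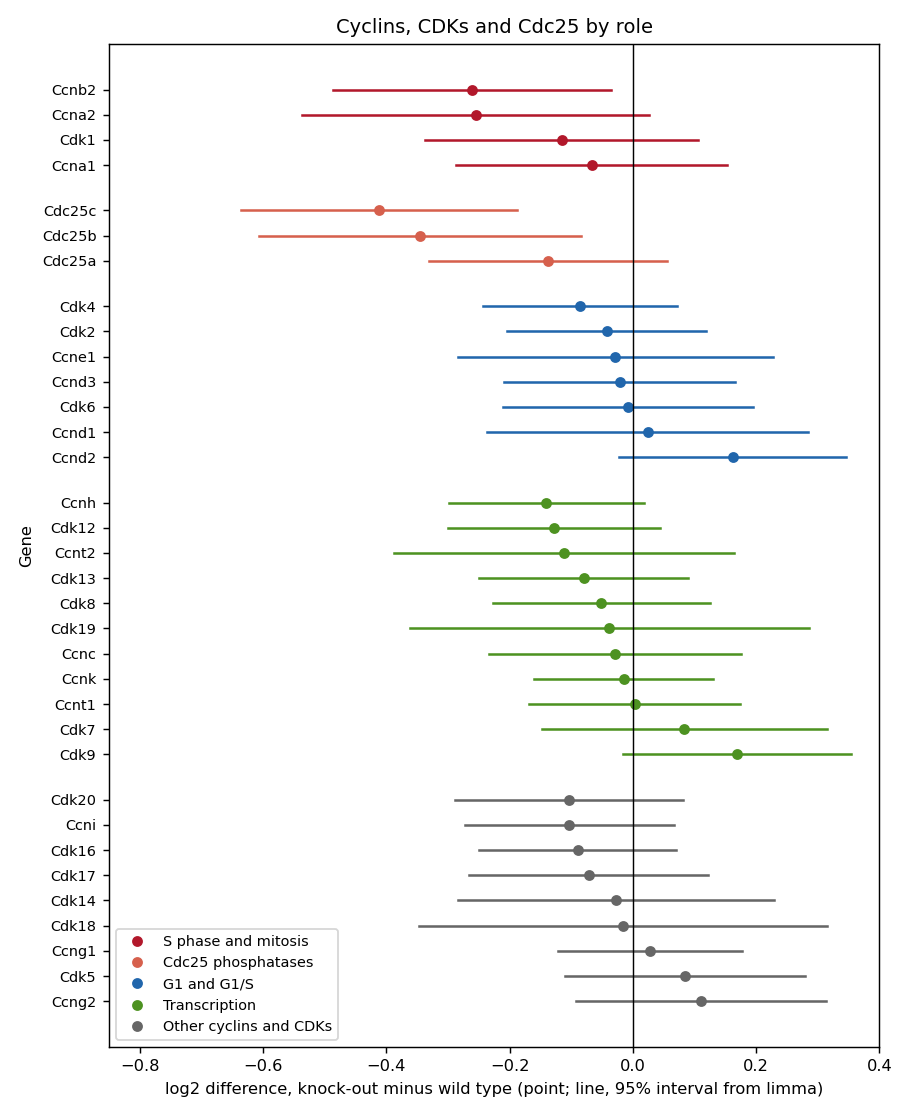
Log2 difference, knock-out minus wild type, for each of the 34 genes (point) with its 95% interval from limma (line), grouped and coloured by role. Only the intervals of Cdc25c, Cdc25b and Ccnb2 leave out 0, all on the lower side, and those of the G1, transcription and other genes all include it.

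Among the genes of S phase and mitosis, all 4 measured had lower means in knock-out cells, and their median log2 difference was -0.186. That median was -0.122 without knock-out array 4 and -0.0637 with the level of Mki67, a marker of cycling cells, as a covariate. Ccnb2, a B-type cyclin that activates Cdk1 at the entry into mitosis, had log2 values of 8.35, 7.94, 8.08, 7.85 and 8.17 on the 5 knock-out arrays and of 8.37, 8.45, 8.33, 8.45 and 8.10 on the 5 wild-type arrays. Knock-out arrays 2, 3 and 4 lay below every wild-type array, while knock-out array 1 lay among the wild-type values and wild-type array 5 among the knock-out values. The difference was -0.26 (SE 0.10, 95% interval -0.49 to -0.03), which is larger than the SD of either group (0.20 in knock-out and 0.14 in wild type) but was not called (limma adjusted p = 0.821; exact two-sided permutation p = 0.0556).

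Ccna2, the cyclin that pairs with Cdk2 in S phase and with Cdk1 later, had log2 values of 8.76, 8.83, 8.62, 8.10 and 8.46 on knock-out arrays and of 8.87, 8.81, 8.90, 8.92 and 8.54 on wild-type arrays. The genotypes overlapped, with wild-type array 5 below knock-out arrays 1, 2 and 3, and knock-out array 4 was the lowest of all. The difference was -0.26 (SE 0.13, 95% interval -0.54 to 0.03; adjusted p = 0.839). Without knock-out array 4 it was -0.142. Cdk1, the kinase that drives mitosis, had 9.51, 9.49, 9.38, 9.02 and 9.19 on knock-out arrays and 9.30, 9.42, 9.50, 9.57 and 9.35 on wild-type arrays. Its 2 lowest values were on knock-out arrays 4 and 5, and the other 3 knock-out arrays lay within the wild-type range. The difference of -0.12 (SE 0.10, 95% interval -0.34 to 0.11; adjusted p = 0.879) was smaller than the knock-out SD of 0.21, and without knock-out array 4 it was -0.0414. Ccna1, an A-type cyclin best known from male germ cells, had 3.53, 3.52, 3.76, 3.71 and 3.30 on knock-out arrays and 3.59, 3.51, 3.88, 3.63 and 3.53 on wild-type arrays. All of these lay below the median of every array, and the groups overlapped almost wholly.

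Promoters of mitotic genes often hold a cell cycle genes homology region (CHR), bound by the MuvB complex through Lin54, next to CCAAT boxes, bound by NF-Y. The windows of Ccnb2 and Cdk1 are shown because they hold both. Each window runs from 250 bases before to 50 bases after the transcription start, 5′ to 3′ on the gene's strand, from RefSeq on GRCm38.p6. Ccnb2 lies at chr9:70421505-70421804 on the minus strand and Cdk1 at chr10:69352863-69353162 on the minus strand, and capitals mark every match to TTTGAA (CHR) or CCAAT on either strand.
Ccnb2: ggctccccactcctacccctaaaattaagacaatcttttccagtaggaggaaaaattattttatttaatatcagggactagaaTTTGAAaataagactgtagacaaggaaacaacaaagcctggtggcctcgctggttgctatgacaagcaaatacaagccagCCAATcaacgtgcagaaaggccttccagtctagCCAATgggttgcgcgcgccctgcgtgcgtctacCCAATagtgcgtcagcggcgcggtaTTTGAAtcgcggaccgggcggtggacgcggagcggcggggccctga
Cdk1: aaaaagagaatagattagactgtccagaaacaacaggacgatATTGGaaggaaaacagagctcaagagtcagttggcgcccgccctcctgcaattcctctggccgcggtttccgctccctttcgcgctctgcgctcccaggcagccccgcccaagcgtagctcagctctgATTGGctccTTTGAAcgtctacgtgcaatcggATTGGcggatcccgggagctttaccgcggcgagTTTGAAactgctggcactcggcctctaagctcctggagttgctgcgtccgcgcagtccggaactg
Matches to the CHR letters begin at positions -167 and 5 of the Ccnb2 window, counted from the start site with negative positions before it, and CCAAT matches begin at -87, -54 and -21. In the Cdk1 window the CHR letters begin at -71 and -15 and the CCAAT letters at -208, -80 and -48. Of the 34 measured genes, 26 had a window in the RefSeq table, with 28 windows in all since Ccnd3 and Cdk16 each had 2. No window was given for Ccna2, Ccnd1, Ccnd2, Ccnh, Cdk5, Cdk17, Cdk19 and Cdc25c. The CHR letters were in 4 of these 28 windows (14.3%), those of Ccnb2, Ccni, Cdk1 and Cdk16, against 17.9% of all 32851 windows. CCAAT was in 14 of 28 windows (50%), against 37.4% of all windows. An E2F site, searched as TTTCCCGC, TTTGGCGC, TTTCGCGC or TTTGCCGC on both strands, was in 3 of 28 windows (10.7%), those of Cdc25a, Cdk1 and Cdk2, against 2.26% of all windows. The Kaiso consensus TCCTGCNA, named for Zbtb33, a relative of Zbtb4, was in 3 of 28 windows (10.7%), those of Ccnc, Cdk1 and Cdk20, against 4.96% of all windows. In the Ccnc window it overlaps a CCAAT match, and no other matches to different motifs overlap in these windows. The windows held a median of 24.5 CG dinucleotides, between 6 and 53, against a median of 7 in all windows.

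All 3 Cdc25 phosphatases had lower means in knock-out cells. Their median log2 difference was -0.346, or -0.23 with the Mki67 level as a covariate, and the 2 that act mainly at mitosis had the lowest differences. Cdc25c, which activates Cdk1 and cyclin B at mitotic entry, had log2 values of 6.02, 5.81, 5.93, 5.84 and 5.96 on knock-out arrays and of 6.17, 6.66, 6.30, 6.42 and 6.09 on wild-type arrays. Every knock-out array lay below every wild-type array, and the gap between the highest knock-out and the lowest wild-type array was narrow. The knock-out mean was 5.91 ± 0.09 and the wild-type mean 6.33 ± 0.22 (SD, n = 5 each), a difference of -0.41 (SE 0.10, 95% interval -0.64 to -0.19), or 1.33-fold lower. It was not called over all genes (limma adjusted p = 0.804), with the smallest exact two-sided permutation p that 5 against 5 arrays allow, 0.00794.

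Cdc25b, which is active at centrosomes and starts the activation of Cdk1, had log2 values of 5.41, 5.56, 5.19, 5.30 and 5.19 on knock-out arrays and of 5.45, 5.88, 5.91, 5.78 and 5.36 on wild-type arrays. Wild-type arrays 2, 3 and 4 lay above every knock-out array, and wild-type arrays 1 and 5 lay among the upper knock-out values. The difference was -0.35 (SE 0.12, 95% interval -0.61 to -0.08; limma adjusted p = 0.821; exact two-sided permutation p = 0.0476), or 1.27-fold lower. Cdc25a, which acts from the G1 to S transition onward, had 6.36, 6.14, 6.21, 6.24 and 5.98 on knock-out arrays and 6.20, 6.18, 6.44, 6.37 and 6.42 on wild-type arrays. Its groups overlapped, with wild-type arrays 1 and 2 among the knock-out values, and the difference of -0.14 (SE 0.09, 95% interval -0.33 to 0.06; adjusted p = 0.843) was of the size of the SDs, 0.14 in knock-out and 0.12 in wild type. Split by the level of Y-linked genes, Cdc25c differed by -0.258 over the 2 knock-out and 2 wild-type arrays with high levels and by -0.515 over the 3 and 3 with low levels. In the same split, Cdc25b differed by -0.378 and -0.324, Ccnb2 by -0.133 and -0.346, Ccna2 by -0.199 and -0.293, and Cdk1 by 0.039 and -0.219. Direction was the same in both sets of arrays for Cdc25b, Ccnb2 and Ccna2, and not for Cdk1. The sets are parts of the arrays over which these genes were already lower, so both sets could not have been higher. For Cdc25c the split could not turn the direction, since every knock-out array lay below every wild-type array.

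The Cdc25b window is shown as that of the Cdc25 gene with the largest difference for which a window was given. It lies at chr2:131186698-131186997 on the plus strand of GRCm38.p6, with the same capitals as above.
Cdc25b: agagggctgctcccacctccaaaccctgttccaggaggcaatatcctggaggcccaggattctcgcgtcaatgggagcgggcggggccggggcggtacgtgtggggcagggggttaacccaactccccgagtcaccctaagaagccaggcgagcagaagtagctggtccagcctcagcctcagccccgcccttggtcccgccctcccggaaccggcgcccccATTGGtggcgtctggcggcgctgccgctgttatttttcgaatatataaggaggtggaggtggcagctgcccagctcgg
It holds 1 CCAAT match, on the reverse strand, beginning at -28, and no match to the CHR, E2F or Kaiso letters. The Cdc25a window holds CCAAT matches at -131 and -81 and an E2F match at -67, and no match to the CHR letters.

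**Figure D2:**
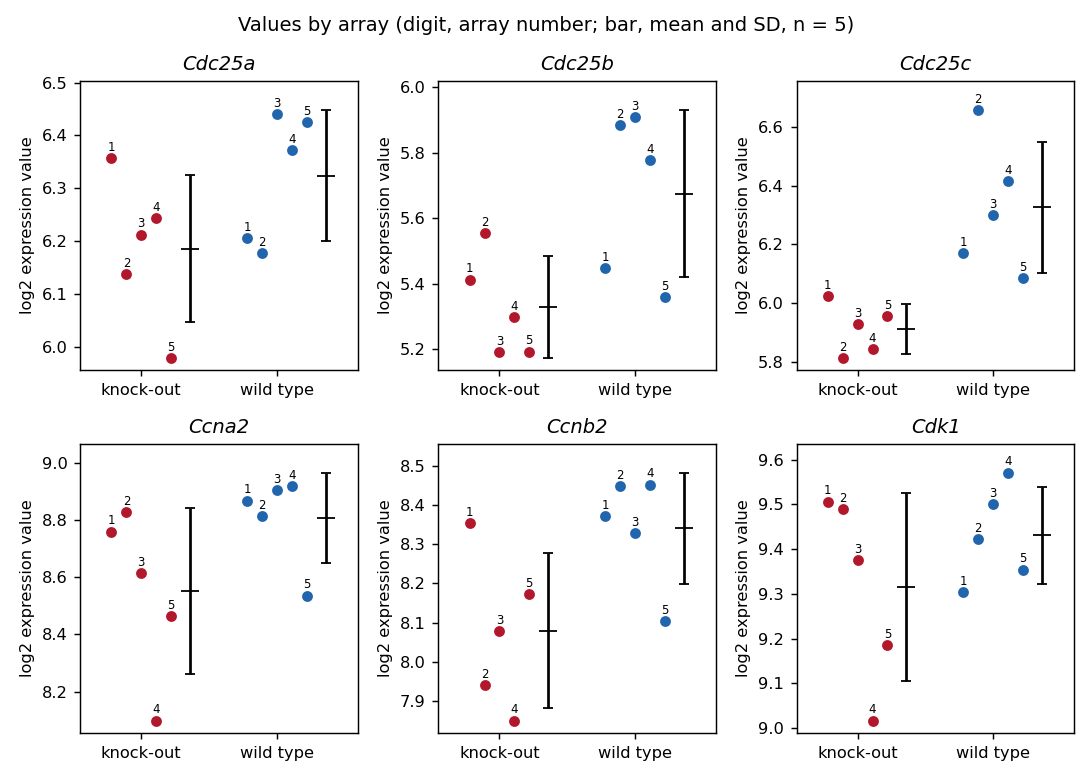
Log2 values of the 3 Cdc25 genes (top) and of Ccna2, Ccnb2 and Cdk1 (bottom) on each array, knock-out left in red and wild type right in blue, with the array's number beside each point and the mean and SD (n = 5) as a bar. The Cdc25c values of the genotypes do not overlap, between 5.81 and 6.02 in knock-out and between 6.09 and 6.66 in wild type, and in each of the other 5 panels they do.

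The G1 genes had differences on both sides of 0, with 5 of 7 lower in the knock-out mean and a median log2 difference of -0.0216, which was 0.0054 after quantile normalization and ran from -0.0442 to 0.0298 when 1 array was left out. Ccnd2, a D-type cyclin, averaged 10.57 ± 0.13 on knock-out arrays and 10.41 ± 0.11 on wild-type arrays (SD, n = 5 each), and differed by 0.16 (SE 0.09, 95% interval -0.02 to 0.35; adjusted p = 0.84). Its knock-out arrays spanned 10.49 to 10.80 and its wild-type arrays 10.29 to 10.58, so that wild-type array 5 lay within the knock-out range. The other D-type cyclins differed less, Ccnd1 by 0.02 (SE 0.12) and Ccnd3 by -0.02 (SE 0.09). Knock-out array 3 was the lowest of its group for Ccnd1, at 9.17, and for Ccnd3, at 7.58. Their kinases Cdk4 and Cdk6 differed by -0.09 (SE 0.07) and -0.01 (SE 0.09), and 3 of the 5 knock-out arrays of Cdk4 lay below every wild-type array. Ccne1, which starts S phase with Cdk2, differed by -0.03 (SE 0.12), and Cdk2 by -0.04 (SE 0.07). Each of the 7 intervals includes 0, and the lowest of their lower bounds is -0.28, for Ccne1. The Cdk2 window holds a CCAAT match at -45 and an E2F match at -140.

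Among the 11 cyclins and kinases of transcription, 8 had a lower knock-out mean, and the median of their log2 differences was -0.038. It was -0.0722 without knock-out array 1, -0.00745 without wild-type array 3, -0.00869 without knock-out array 5 and -0.0183 after quantile normalization. The largest positive difference of the whole set was that of Cdk9, the kinase of the elongation factor P-TEFb, with values between 6.07 and 6.35 on knock-out arrays and between 5.84 and 6.16 on wild-type arrays. It differed by 0.17 (SE 0.09, 95% interval -0.02 to 0.35; adjusted p = 0.839), and its groups overlapped. The cyclin partners of Cdk9, Ccnt1 and Ccnt2, differed by 0.0026 (SE 0.08) and -0.11 (SE 0.13). Knock-out arrays of Ccnt2 were spread widely, from 6.37 to 7.15, around a wild-type range of 6.69 to 6.93.

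Ccnh is the cyclin of the Cdk7 complex that activates other cyclin-dependent kinases and serves in the general factor TFIIH. It had the lowest difference among the transcription genes, -0.14 (SE 0.07, 95% interval -0.30 to 0.02; limma adjusted p = 0.839; exact two-sided permutation p = 0.0317). Its unadjusted limma p was 0.0768. By the same permutation test, p was 0.0556 for Cdk9, 0.0635 for Ccnd2, 0.0794 for Cdk12 and 0.103 for Ccna2. Of the Ccnh knock-out arrays, 4 lay between 6.65 and 6.68, below every wild-type array. The remaining one, array 3, lay at 6.88 within the wild-type range of 6.80 to 6.96. Cdk7, the kinase of Ccnh, differed the other way, by 0.08 (SE 0.11). Cdk12 and Cdk13, which phosphorylate elongating RNA polymerase II together with Ccnk, differed by -0.13 (SE 0.08) and -0.08 (SE 0.08), and Ccnk by -0.02 (SE 0.07). The kinases of the Mediator complex, Cdk8 and Cdk19, differed by -0.05 (SE 0.08) and -0.04 (SE 0.15), and their cyclin Ccnc by -0.03 (SE 0.09). The intervals of all 11 genes include 0.

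Of the remaining 9 cyclins and kinases, 6 had a lower knock-out mean, with a median log2 difference of -0.0271, which ran from -0.0932 to 0.0138 when 1 array was left out. Ccng1 and Ccng2, cyclins known to accumulate after stress and in resting cells, differed by 0.03 (SE 0.07) and 0.11 (SE 0.09), and Ccni by -0.10 (SE 0.08). The PCTAIRE kinases Cdk16, Cdk17 and Cdk18 differed by -0.09 (SE 0.07), -0.07 (SE 0.09) and -0.02 (SE 0.15). Cdk5, best known for its part in neurons, differed by 0.08 (SE 0.09), Cdk14 by -0.03 (SE 0.12), and Cdk20 by -0.10 (SE 0.09). The Cdk18 values ran from 6.23 to 6.60 on knock-out arrays and from 6.08 to 6.92 on wild-type arrays. One of the Cdk16 windows, at chrX:20687704-20688003 on the plus strand of GRCm38.p6, is shown because it pairs a CHR match with CCAAT matches as the mitotic windows above do.
Cdk16: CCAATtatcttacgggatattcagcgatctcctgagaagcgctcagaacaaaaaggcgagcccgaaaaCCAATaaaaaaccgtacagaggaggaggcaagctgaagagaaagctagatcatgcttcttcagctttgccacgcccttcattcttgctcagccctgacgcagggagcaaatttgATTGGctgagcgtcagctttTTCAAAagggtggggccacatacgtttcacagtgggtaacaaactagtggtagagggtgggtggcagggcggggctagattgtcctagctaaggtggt
The CHR letters begin at -48, on the reverse strand, and the CCAAT letters at -250, -182 and -68.

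**Figure D3:**
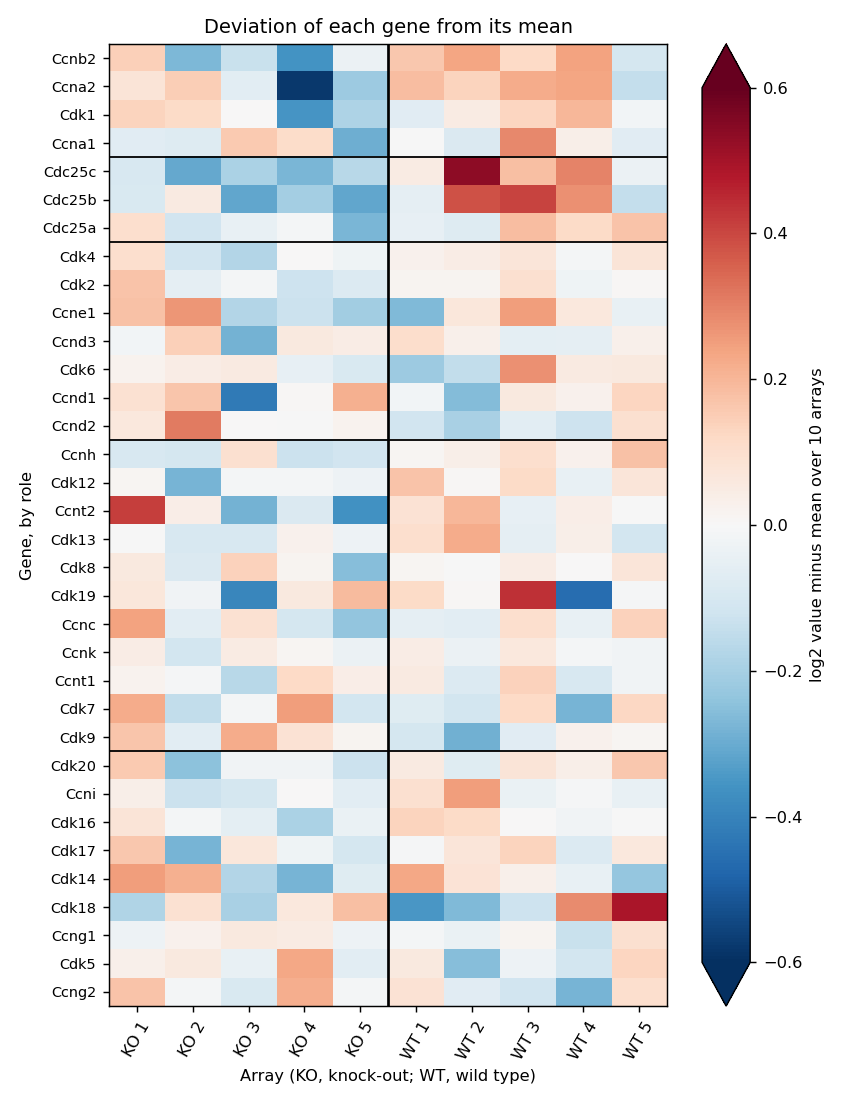
Log2 value of each of the 34 genes on each array minus its mean over the 10 arrays (red above, blue below), with knock-out arrays left of wild-type arrays and genes grouped by role. Knock-out array 4 is low for Ccna2, Ccnb2 and Cdk1, and the deviations of Cdc25b and Cdc25c are above 0 on wild-type arrays 2, 3 and 4.

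Variation between arrays of 1 genotype was as large as the differences for many of these genes, so each was set against Mki67. Mki67 itself had 8.46, 8.45, 8.28, 7.99 and 8.28 on knock-out arrays and 8.64, 8.59, 8.56, 8.56 and 8.10 on wild-type arrays, a difference of -0.20 (SE 0.12; adjusted p = 0.842). The other proliferation markers measured, Top2a and Pcna, differed by -0.19 (SE 0.13) and -0.06 (SE 0.09), and were not used as covariates. For Mki67, knock-out array 4 and wild-type array 5 were the lowest of their groups and the farthest from the median. Over the 10 arrays, 0 of the 34 genes correlated with Mki67 after adjustment over the 22179 other genes, and 0% of all genes did. At an unadjusted permutation p under 0.05, 7 of 34 correlated, against 9.84% of all genes, 6 of them with a positive r, against 4.38% of all genes, and Cdk5 with a negative one, against 5.46% of all genes. By rho, 7 of 34 had an unadjusted permutation p under 0.05, against 2179 of the 22179 other genes. On deviations from the genotype means, 5 of 34 had such a p, against 2012 of the 22179. Without the 2 extreme arrays, which leaves 8, 2 of 34 passed an unadjusted exact permutation p of 0.05. The share of all genes was then 7.28%, so that the share in the set was near the background. Ccna2 correlated most strongly, with r = 0.926 (permutation p = 0.00026 from 100000 two-sided resamples, adjusted p = 0.189) and rho = 0.818 (permutation p = 0.00592, adjusted p = 0.39). Without the 2 extreme arrays r was 0.893, and on deviations from the genotype means it was 0.904, so the relation was of similar size within genotypes.

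Cdk14 (r = 0.801, rho = 0.758), Ccnb2 (r = 0.793, rho = 0.782) and Cdk16 (r = 0.782, rho = 0.794) followed, with permutation p-values of r of 0.00633, 0.00672 and 0.0062 and adjusted p-values of 0.308, 0.314 and 0.307. Their permutation p-values of rho were 0.0146, 0.0104 and 0.00881, with adjusted p-values of 0.416, 0.398 and 0.398. Without the 2 extreme arrays r was 0.558 for Cdk14, 0.67 for Ccnb2 and 0.716 for Cdk16. On deviations from the genotype means r was 0.873, 0.724 and 0.714 in the same order. Cdk1 had r = 0.698 (permutation p = 0.0225, adjusted p = 0.429) and rho = 0.479 (permutation p = 0.165, adjusted p = 0.661), and r of 0.435 without the 2 extreme arrays, on which its relation rests in part. The relation of Cdk5 (r = -0.65, permutation p = 0.0424, adjusted p = 0.492; rho = -0.491, permutation p = 0.155, adjusted p = 0.653) rests on those 2 arrays, since r was -0.11 without them. Ccng1 had r = -0.629 (permutation p = 0.0505, adjusted p = 0.509) and rho = -0.576 (permutation p = 0.0876, adjusted p = 0.577), and r of -0.374 without those arrays.

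Among the phosphatases, Cdc25b had r = 0.689 (permutation p = 0.0308, adjusted p = 0.461) and rho = 0.733 (permutation p = 0.0205, adjusted p = 0.436), with r = 0.778 without the 2 extreme arrays and 0.567 within genotypes. Cdc25c had r = 0.625 (permutation p = 0.0538, adjusted p = 0.517) and rho = 0.697 (permutation p = 0.0306, adjusted p = 0.465), with r = 0.684 without the 2 extreme arrays and 0.466 within genotypes. Cdc25a had r = 0.0535 (permutation p = 0.883, adjusted p = 0.98) and rho = -0.00606 (permutation p = 1, adjusted p = 1), with r = 0.513 without the 2 extreme arrays and -0.243 within genotypes. Whether the 3 correlations differ from one another was not tested. With the Mki67 level added to the limma model as a covariate, Ccna2 differed by -0.0525 between genotypes, Cdk1 by -0.0128 and Ccnb2 by -0.141. In the same model Cdc25c differed by -0.336 and Cdc25b by -0.23, with limma adjusted p-values of 0.742 and 0.822.

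**Figure D4:**
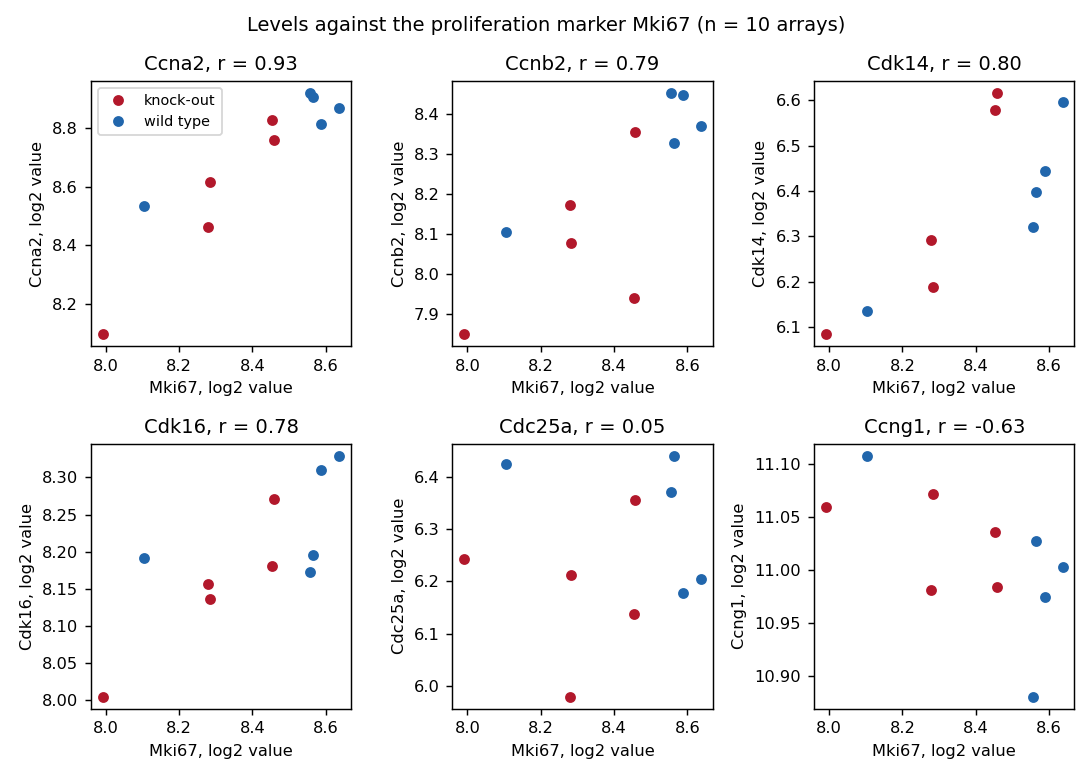
Log2 value of 6 genes against that of Mki67 on the 10 arrays, knock-out in red and wild type in blue, with Pearson's r above each panel. Ccna2, Ccnb2, Cdk14 and Cdk16 have r of 0.78 to 0.93, Cdc25a has r = 0.05, which was 0.513 without knock-out array 4 and wild-type array 5, and Ccng1 has r = -0.63, which was -0.374 without them.

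The genes that act on cyclins and their kinases were described from 5 lists. Of 73 measured genes, 45 had a lower knock-out mean, 0 passed an adjusted p of 0.05, 2 were lower and 1 higher at an unadjusted p under 0.05, and the genotypes did not overlap for 1. Over all genes, 49.3% had a lower mean, 2.73% were lower and 3.25% higher at that p, and 0.987% did not overlap, so the counts past that p and without overlap lay near the background. Of 8 kinase inhibitors, 5 had a lower mean. Cdkn1a, the p53-induced inhibitor p21, averaged 11.18 ± 0.11 on knock-out arrays and 10.96 ± 0.15 on wild-type arrays (SD, n = 5 each), and differed by 0.23 (SE 0.09; adjusted p = 0.821; exact two-sided permutation p = 0.0317). Cdkn3 differed by -0.13, Cdkn2a, the gene of p16 and p19Arf, by 0.10, and Cdkn1b, the inhibitor p27, by -0.09, each within its spread.

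Of 13 genes of cyclin turnover, 9 had a lower mean, and the median of their log2 differences was -0.066. Skp2, the F-box protein that marks p27 for destruction, had values between 7.08 and 7.20 on knock-out arrays and between 7.24 and 7.50 on wild-type arrays. Its groups did not overlap, with a difference of -0.19 (SE 0.07; limma adjusted p = 0.821; exact two-sided permutation p = 0.00794). Fbxo5, an inhibitor of the anaphase-promoting complex, differed by -0.26 (SE 0.12), Ambra1, which directs the destruction of D-type cyclins, by -0.18 (SE 0.09), and Ube2c, an enzyme of the anaphase-promoting complex, by -0.16 (SE 0.11). The groups of these 3 genes overlapped.

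Of 23 transcriptional controllers of the cycle, 15 had a lower mean, with a median of -0.0452. E2f4, an E2F that represses cell cycle genes in resting cells, averaged 7.45 ± 0.12 on knock-out arrays and 7.67 ± 0.11 on wild-type arrays (SD, n = 5 each), and differed by -0.22 (SE 0.08; limma adjusted p = 0.821; exact two-sided permutation p = 0.0159). Myc differed by -0.21 (SE 0.11), Nfyb, a subunit of the CCAAT-binding factor NF-Y, by -0.19 (SE 0.11), and Lin37, a subunit of the MuvB core, by 0.14 (SE 0.08). Of 14 direct regulators of the kinases, 9 had a lower mean. Larp7, which holds P-TEFb inactive, differed by -0.17 (SE 0.08), Cdk2ap1 by -0.12 (SE 0.08), the inhibitory kinase Wee1 by -0.12 (SE 0.10) and Cables2 by -0.11 (SE 0.10). Of 15 further cyclins and kinases outside the set, 7 had a lower mean, and their median difference was 0.0154. The smallest p-values there belonged to Cdkl2 (0.15, SE 0.12), Ccnj (-0.11, SE 0.09), Ccno (0.15, SE 0.13) and Ccnl1 (-0.10, SE 0.09).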

How the data were processed

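Gene expression was measured with 10 one-colour Affymetrix arrays, 5 per genotype, grouped by the genotype label. The range of the deposited values, 0.925 to 13.42, is that of log2 intensities. The authors' background correction and scaling are not stated in the labels or the deposited table. Any scaling that makes arrays alike removes a difference in RNA per cell.

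Probe sets were named by the platform annotation: 23521 of 41345 had 1 symbol, 1814 had several and 16010 had none, and only the first were used. Each gene was represented by its probe set with the highest mean, giving 22180 genes. Differences, knock-out minus wild type, were fitted on all genes with lmFit and eBayes in limma 3.58.1 (R 4.3.3), with p-values adjusted by Benjamini-Hochberg over all genes and a threshold of 0.05. Exact permutation tests ran over the 252 splits of the arrays. Correlations with Mki67 used 100000 permutations in numpy 2.4.6, adjusted over the 22179 other genes and not over the set alone as first planned. The limma fit was tested on simulated data.

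The named genes are all listed members, Zbtb4, Mki67, Top2a, Pcna and the up to 4 genes of smallest p in each list of related genes. The members and lists were chosen with earlier results of these data known. Promoter windows are those of RefSeq, GRCm38.p6. Replicate numbers were checked as pairs: same-numbered arrays deviated from their group means with correlations of 0.165, -0.0455, -0.00408, -0.0128 and 0.059, and were not treated as pairs. Same-numbered arrays were alike in whether Y-linked genes were high or low. Alternatives were quantile normalization, median centring, leaving out the dimmest 40% of genes, averaging probe sets, trend and robust eBayes, array weights, a replicate block, the Y-linked level as a covariate, leaving out each array, and the Mki67 level as a covariate, chosen after seeing the data.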

Additional observations from a re-analysis of the deposited data

Results flagged for a closer look

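In 5 of 72 groups of 5 arrays examined (34 genes, Zbtb4 and Mki67 in each genotype), 1 array stood apart from the rest by Dixon's criterion, and chance alone does this in about 1 in 20 groups. Mki67 was at 8.104 on wild-type array 5, with the next lowest wild-type array at 8.556. Ccna2, the S phase cyclin, was low on the same array, at 8.535 with the next at 8.813. Without that array the difference of Ccna2 was -0.323. Ccnd2 was high on knock-out array 2, at 10.803 with the next at 10.552, and its difference without that array was 0.103. Cdk12 was low on the same array, at 6.419 with the next at 6.664, and its difference without that array was -0.0753. Ccnh was high on knock-out array 3, at 6.879 with the next at 6.685, and its difference without that array was -0.182.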

How the results depend on the processing

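No gene of the set passed an adjusted p of 0.05 under any alternative, nor one of 0.1 in the limma fit of all arrays. Over all genes the count was 0, and 0 to 1 when 1 array was left out (1 without wild-type array 5). The smallest adjusted p of Cdc25c over its alternatives was 0.589. The replicate block gave the same log2 differences (Cdc25c -0.412, limma adjusted p = 0.83) and called 0 genes. Deviations of same-numbered arrays correlated at 0.165 at most, though the arrays of each number were alike in Y-linked level. Cdc25c, Cdc25b and Ccnb2 had a lower knock-out mean under each alternative. So had Ccna2 and Cdk1, but only by -0.0525 and -0.0128 with the Mki67 level as a covariate, and Cdk1 was at 0.039 over the arrays with high Y-linked genes. Some alternatives could not turn a direction. Trend and robust eBayes, averaging probe sets and the replicate block left the differences of these genes unchanged. Leaving out 1 array, or splitting the arrays by the Y-linked level, could not turn Cdc25c, whose groups did not overlap. With 1 array left out, Cdc25c ran from -0.472 to -0.329, Cdc25b from -0.425 to -0.287, Ccnb2 from -0.329 to -0.203, Zbtb4 from -0.701 to -0.519, the count of lower means from 21 to 28, the median of the set from -0.0899 to -0.0354 and that of the other cyclins and kinases from -0.0932 (without knock-out array 1) to 0.0138. The direction of small differences turned. With the Mki67 level as a covariate, Ccne1 was at 0.0429, Ccnt1 at -0.00892, Ccng1 at -0.0103 and Cdk14 at 0.146. With array weights Ccnt1 was at -0.000889 and Cdk18 at 0.0419, and with centring Ccnt1 was at -0.015. With quantile normalization Ccnd3 was at 0.0054, Ccne1 at 0.00424, Cdk6 at 0.022, Ccnc at 0.00439, Ccnk at 0.0106, Cdk14 at 0.0107 and Cdk18 at 0.0208. Leaving out 1 array turned Ccnd1 (-0.0383 to 0.133), Ccnd3 (-0.0596 to 0.0464), Ccne1 (-0.0992 to 0.0298), Cdk6 (-0.0634 to 0.0594), Ccnc (-0.0924 to 0.0264), Ccnk (-0.0295 to 0.011), Ccnt1 (-0.0264 to 0.0451), Cdk8 (-0.0919 to 0.00576), Cdk19 (-0.157 to 0.067), Ccng1 (-0.00158 to 0.0556), Cdk14 (-0.0932 to 0.0399) and Cdk18 (-0.105 to 0.104). The causes were not tested. Which low values are background is not known, since the table has no detection measure. Ccna1 was left out by the filter on dim genes.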
